A study of Mus musculus with 3 samples.

Results

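The tumour suppressor p53, encoded by Trp53, and 9 genes known as its targets were followed through single-cell RNA libraries of mouse brainstem with and without a transplanted glioma. The 10 genes were taken by symbol from the count matrices, which list 32285 genes, and all 10 were present: Trp53, Mdm2, Phlda3, Trp53inp1, Aen, Ccng1, Bax, Sesn2, Zmat3 and Eda2r. The 2 tumour libraries came from brainstems of B6(Cg)-Tyrc-2J/J mice that had received 100000 cells of DIPG4423, a murine diffuse midline glioma line, at 6 weeks of age, and that were left untreated for 3 weeks. The single normal library came from brainstem labelled as normal, also untreated. The labels give the strain and age in a protocol text shared by all libraries, so the age of the normal animal is not given separately. Both tumour libraries come from 1 line, and the labels do not state whether that line carries a changed Trp53. Reads at the 3′ end of a transcript would not show a change outside that end, so the Trp53 counts below do not check the gene's state.

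p53 is a transcription factor that is held at a low level in unstressed cells, mainly by Mdm2, a ubiquitin ligase whose own gene p53 switches on. After DNA damage or oncogene activity p53 accumulates and drives genes of cell cycle arrest, apoptosis, redox control and metabolism. The mouse locus Cdkn2a encodes p19Arf, which restrains Mdm2, and p16Ink4a, a cell cycle inhibitor. p53 protein is controlled mostly after translation, and its transcript level is not a measure of its activity.

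The promoters of the members show how differently these genes present the sequence that p53 binds, a pair of decamers. RefSeq windows from 250 bases before to 50 bases after a start site (GRCm38.p6) were found for 8 of the 10 members, all but Zmat3 and Trp53inp1. The consensus p53 half-site decamer, searched without mismatch (it is its own reverse complement, so 1 search covers both strands), was present in the windows of 5 members and in 8.36% of all 32851 windows. A pair of decamers up to 13 bases apart with at most 1 mismatch in all was found for Bax and Ccng1, and in 1.09% of all windows. Each stretch is shown 5′ to 3′ on the gene's strand with perfect decamers in capitals, and Cdkn1a, the p53 target that encodes the cell cycle inhibitor p21, is included for comparison.
Bax (chr7:45467060-45467129, minus strand, decamer 201 bases before the start): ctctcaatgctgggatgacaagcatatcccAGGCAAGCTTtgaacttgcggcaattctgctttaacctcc
Ccng1 (chr11:40755432-40755501, minus strand, 185 bases before): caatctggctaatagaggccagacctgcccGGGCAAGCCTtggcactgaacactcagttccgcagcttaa
Mdm2 (chr10:117710905-117710974, minus strand, 186 bases before): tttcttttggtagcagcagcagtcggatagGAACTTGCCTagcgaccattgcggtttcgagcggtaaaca
Trp53 (chr11:69580274-69580303, plus strand, 75 bases before): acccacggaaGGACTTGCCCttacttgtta
Aen (chr7:78895927-78895956, plus strand, 121 bases before one of its starts): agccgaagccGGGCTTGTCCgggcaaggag
Cdkn1a (chr17:29090876-29090967, plus strand, first decamer 73 bases before): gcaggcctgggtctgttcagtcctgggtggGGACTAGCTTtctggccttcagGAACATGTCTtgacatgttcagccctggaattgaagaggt
The Bax decamer has a second one with 1 mismatch lying upstream after a spacer of 1 base, and the Ccng1 decamer has one directly upstream, with a spacer of 0 bases and 1 mismatch. Cdkn1a holds 2 perfect decamers 12 bases apart. For Mdm2 and Trp53 the best partner had 4 and 3 mismatches. The Aen decamer overlaps annotated exons of transcripts that start earlier, and the windows of Phlda3, Sesn2 and Eda2r held no perfect decamer. A match is a description of the sequence in this window, and no match says only that the letters are not in this window.

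The libraries held 10550, 9407 and 3083 cells after filtering (tumour 1, tumour 2 and normal), with 140556302, 145962330 and 11068572 unique molecular identifiers (UMIs, 1 per captured transcript) and medians of 8783.5, 11297 and 2395 UMIs per cell. The tumour libraries shared 37 cell barcodes with each other and 16 and 13 with the normal library. Cells were clustered without the members, and clusters were named only by their marker genes. Clusters 0, 1, 3, 5, 15 and 19 stayed unnamed and entered the whole libraries but no class. The largest, cluster 1, held 849, 1813 and 27 cells (tumour 1, tumour 2 and normal) and detected all 8 microglia markers. Unless stated, this unnamed microglial cluster is left out of the microglia-like class and of the host classes. Glial progenitor-like cells (Pdgfra, Cspg4, Olig1, Olig2, Sox10) numbered 4366 and 2098 in the tumour libraries and 1 in the normal library, so no class of the normal library can stand beside them. Levels are given as CPM, the UMIs of a gene scaled to the total UMIs of the library or class. Because 3′ counting gives 1 tag per molecule, no length correction applies, but levels are compared here only within a gene. Where nothing else is stated, tests are edgeR's quasi-likelihood test on summed counts with Benjamini-Hochberg adjustment over all genes tested, and a gene passed at an adjusted p under 0.05.

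In whole libraries, Phlda3, Bax and Aen were higher in the tumour libraries than in the normal library, and Trp53inp1 was lower. The other 6 members, Trp53 and Mdm2 among them, did not pass. Phlda3, which encodes a repressor of Akt signalling, stood at 51.8 and 41.8 CPM in the tumour libraries and 2.62 CPM in the normal library. The 2 tumour values lay close together and far above the normal value, a log2 difference of 4.71 (SE 0.38, adjusted p = 0.00724 by edgeR). Bax, the pore-forming apoptosis effector of the mitochondrial outer membrane, gave 215.5 and 192 CPM against 47.8 CPM, a log2 difference of 2.65 (SE 0.32, adjusted p = 0.0115 by edgeR). Aen, an exonuclease of apoptotic cells, gave 18.6 and 20.0 CPM against 10.1 CPM, with a log2 difference of 1.49 (SE 0.36, adjusted p = 0.0399 by edgeR). Trp53inp1, an autophagy and stress protein that promotes p53 activity, went the other way, at 23.2 and 16.7 CPM against 89.9 CPM, with a log2 difference of -1.62 (SE 0.29, adjusted p = 0.0206 by edgeR). So 4 of 10 members passed, while 21.5% of all 20449 genes tested did. The median log2 difference was 0.84 over the members and 0.14 over all genes tested. The members and the wider lists were chosen with earlier results of these data known. Here and below, their counts and medians beside all genes are therefore a description only.

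Trp53 itself was at 76.2 and 71.1 CPM in the tumour libraries and 53.2 CPM in the normal library, both tumour values being the higher. Its log2 difference of 1.02 (SE 0.28) missed the threshold (adjusted p = 0.0535 by edgeR), and it passed when neutrophil-like, granulocyte precursor-like, B-like and erythroid-like cells were left out (1.51, adjusted p = 0.0162 by edgeR) or with no filter on low counts (1.16, adjusted p = 0.0437 by edgeR). With library size alone it was 0.47 (adjusted p = 0.296 by edgeR). Mdm2 read 46.3, 43.3 and 55.5 CPM in tumour 1, tumour 2 and normal. Ccng1, the cyclin G1 gene, read 20.4, 27.6 and 27.4 CPM. Neither separated the tumour libraries from the normal one beyond the error of the fit. Sesn2, a stress sensor that restrains mTORC1, read 10.0, 8.65 and 10.0 CPM, and Zmat3, a splicing regulator, read 40.5, 32.4 and 33.7 CPM. Eda2r, a receptor of the TNF family, was near the limit of detection at 0.142, 0.432 and 0.0903 CPM. Whole-library levels mix cell types, and fewer cells of a type and less RNA per cell cannot be told apart in them. Of the Phlda3 UMIs, 6651 of 7275 in tumour 1 and 5230 of 6094 in tumour 2 lay in glial progenitor-like cells. The normal library had 1 such cell. With the neutrophil-like, granulocyte precursor-like, B-like and erythroid-like cells left out, Trp53inp1 differed by -1.1 on the log2 scale, beside -1.62 with all cells. It then passed only just.

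**Figure D1:**
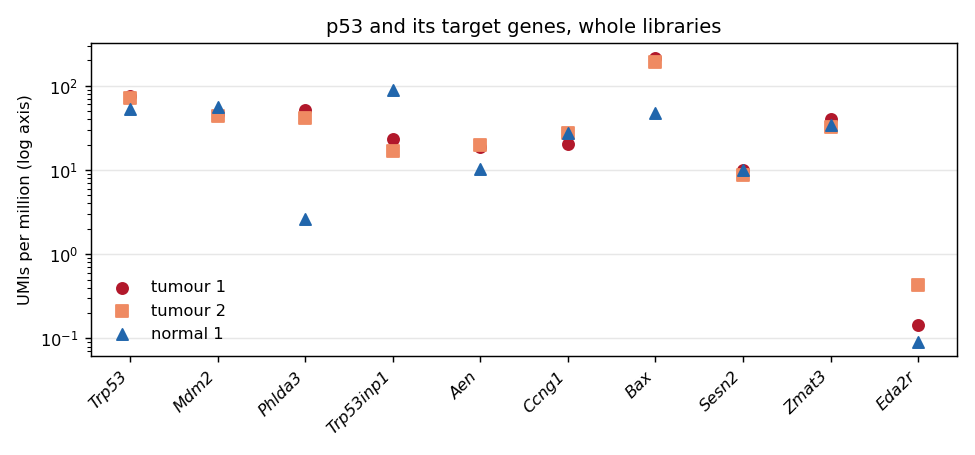
Level of each member in the whole libraries, in CPM on a log axis (circles tumour 1, squares tumour 2, triangles normal 1, 1 point a library). Phlda3 and Bax lie well above the normal library in both tumour libraries (51.8 and 41.8 against 2.62 for Phlda3), Trp53inp1 lies below it, and the points of Ccng1, Sesn2 and Zmat3 lie close together.

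The scaling between libraries moved these values. TMM scaling put the median gene at 0.14 and library size alone put it at -0.42, and the split of passing genes went from 2680 higher and 1710 lower to 1686 higher and 3798 lower. Phlda3 (4.16), Bax (2.09) and Trp53inp1 (-2.17) still passed with library size alone. Aen (0.93, adjusted p = 0.112 by edgeR) did not, and the signs of Mdm2, Ccng1 and Sesn2, none of which passed, turned negative. The test had 1 residual degree of freedom, from the tumour pair, and the lone normal library was assumed to vary like that pair.

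Of 30 further p53 targets, all tested, 5 were higher and 2 lower in the tumour libraries. The 4 largest changes were Gdf15 (4.36), a stress cytokine, Gls2 (-3.75), a glutaminase, Fas (-3.0), a death receptor, and Plk2 (2.62), a polo-like kinase. Cdkn1a rose from 61.3 CPM to 121.5 and 89.6 CPM, a log2 difference of 1.33 (adjusted p = 0.0373 by edgeR). Of 16 regulators of p53, 15 were tested, 2 were higher (Cdkn2a and Hipk2) and Mdm4 was lower. Mdm4, a relative of Mdm2 that binds and inhibits p53, stood at 72.1 and 65.9 CPM against 206.4 CPM, a log2 difference of -1.03 (adjusted p = 0.0454 by edgeR). Cdkn2a read 328.4 and 222.2 CPM in the tumour libraries and 0.0903 CPM, a single UMI, in the normal library. The p16Ink4a and p19Arf transcripts of Cdkn2a share their 3′ end and could not be told apart. The median log2 difference of the 30 targets was 0.01, below the 0.14 of all genes tested.

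In all, 4 classes had at least 100 cells in every library and were compared between tumour and normal on their own. Bax and Sesn2 rose in neutrophil-like cells, and the difference in Bax varied between classes. Neutrophil-like cells carried 126.4 and 113.3 CPM of Bax in the tumour libraries against 15.7 CPM in the normal library, a log2 difference of 2.30 (SE 0.39, adjusted p = 0.00208 by edgeR). Microglia-like cells carried 171 and 183.4 CPM against 37.5 CPM, a log2 difference of 2.50 (SE 0.24). This value missed the threshold in the main fit (adjusted p = 0.0566 by edgeR), where 1 of 13658 genes passed and 3769 had an unadjusted p under 0.05. With DESeq2 size factors in the same test, 2358 genes passed and Bax had an adjusted p of 0.000462, and with DESeq2 itself 1199 genes passed. Neuron-like cells carried 49.1 and 65.3 CPM against 33 CPM (0.89, SE 0.38, adjusted p = 0.255 by edgeR), and astrocyte-like cells 53.8 and 68.4 CPM against 42.7 CPM (0.44, SE 0.35, adjusted p = 0.518 by edgeR). In all 4 classes both tumour values lay above the normal value. With the unnamed microglial cluster added to the microglia-like cells the Bax difference was 2.73. A test added after the data were seen, of whether the tumour against normal difference varied over the 4 classes, gave an adjusted p of 0.0056 for Bax by edgeR. Bax was the 1 member of 9 tested to pass it, and 10.0% of all 14677 genes passed it.

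In neutrophil-like cells Bax and Sesn2 were the 2 of 8 tested members that passed, both higher, while 16.9% of all genes tested passed. Sesn2 read 41 and 47.8 CPM against 11.3 CPM, a log2 difference of 1.35 (SE 0.42, adjusted p = 0.0465 by edgeR), and it lost its call with a stricter cell filter (0.71, adjusted p = 0.273 by edgeR), doublets kept, finer clustering, DESeq2 size factors or DESeq2. The class holds 2 clusters in different proportions: cluster 30, led by the granule genes Ltf, Camp and Ngp of immature neutrophils, had 311 of the 521 normal cells and 34 and 19 of the tumour cells. In cluster 13, the other one, led by Cxcr2 and Il1r2, Bax stood at 153 and 128.9 CPM against 17.4 CPM, and Sesn2 at 53.1 and 55.2 CPM against 39.3 CPM. Within cluster 13 the Bax values thus stayed far apart, and those of Sesn2 lay closer than in the class. Trp53inp1 went the other way in cluster 13, at 172.3 and 133.5 CPM against 479.7 CPM. Over the class its difference was -0.86 (adjusted p = 0.0769 by edgeR), and it passed as lower with stricter cells (-1.44, adjusted p = 0.0076 by edgeR) and with doublets kept (-0.98, adjusted p = 0.03 by edgeR). Cdkn1a gave 251.2 and 55.2 CPM in that cluster against 2.18 CPM, a single UMI. Over the whole class Cdkn1a differed by 4.79 on the log2 scale (adjusted p = 0.00331 by edgeR), where the normal library had 2.61 CPM. Of 21 tested targets 4 were higher and 3 lower in neutrophil-like cells, the largest after Cdkn1a being Plk3 (3.87), Tigar (-3.38) and Pmaip1 (3.19). Phlda3 had 13 and 5 UMIs in tumour neutrophil-like cells and 0 of 2298702 in the normal ones, at least 5.79-fold higher over the tumour sum (floor of 3 counts over the normal group), and it did not pass (adjusted p = 0.11 by edgeR). These Phlda3 levels were 22.8% and 4.11% of the progenitor-like level, beside 7.24% to 13.6% and 2.83% to 6.23% for 7 progenitor marker transcripts in the same cells.

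No member passed in microglia-like (0 of 9 tested), astrocyte-like (0 of 8) or neuron-like cells (0 of 7) by edgeR, where 0.00732%, 7.08% and 4.28% of all genes tested passed. At an unadjusted p under 0.05 the counts of members were 2, 1 and 1, and DESeq2 called 1, 0 and 0. The wider target list had 0 of 29 tested past the threshold in microglia-like cells (10 at an unadjusted p under 0.05), and 1 of 19 in neuron-like cells, Rps27l (2.95). The microglia-like cells of the normal library lie mostly in cluster 8 (618 of 700), and those of the tumour libraries in cluster 2 (1605 and 868) and the dividing cluster 9 (248 and 219). In cluster 2, which had 76 cells of the normal library, Bax was at 121.8 and 112.2 CPM in the tumour libraries and 35 CPM (5 UMIs) in the normal library. In cluster 9 it was at 260.6 and 254.8 CPM. Bax levels in tumour microglia-like cells therefore lay above both normal clusters, and highest in the dividing cells. Cdkn1a had another pattern, at 23.3 and 19.7 CPM in cluster 2 of the tumour libraries, 35 CPM in that of the normal library, and 117.6 and 151.4 CPM in cluster 9. In astrocyte-like cells 2 of 18 tested targets passed, Cdkn1a and Xpc (1.81), both higher. Cdkn1a read 324.3 and 229.1 CPM against 90 CPM (1.59, SE 0.27, adjusted p = 4.34e-07 by edgeR). The astrocyte-like fit took its spread from all genes together, so this p-value does not measure the spread of Cdkn1a itself. Trp53 differed by between -0.01 and 0.69 on the log2 scale over the 4 classes, and Mdm2 by between -0.05 and 0.77, none past the threshold. Among the regulators Cdkn2a passed as higher in astrocyte-like, neuron-like and neutrophil-like cells. Its tumour levels there were 24 and 12.5, 26.3 and 21, and 49.2 and 23.6 CPM. These were 5.48% and 2.74%, 6.00% and 4.59%, and 11.2% and 5.16% of the progenitor-like level. The 7 progenitor markers ran from 4.23% to 30.1% and 1.20% to 35.25% in astrocyte-like cells. In neuron-like cells they ran from 5.925% to 11.05% and 5.52% to 9.96%, and in neutrophil-like cells from 7.24% to 13.6% and 2.83% to 6.23%. Each Cdkn2a value lay within or below its marker range. Cop1 passed as lower in neutrophil-like cells, and Mdm4 in no class. The whole normal library held 1 Cdkn2a UMI. The part of progenitor RNA in these values was not tested.

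**Figure D2:**
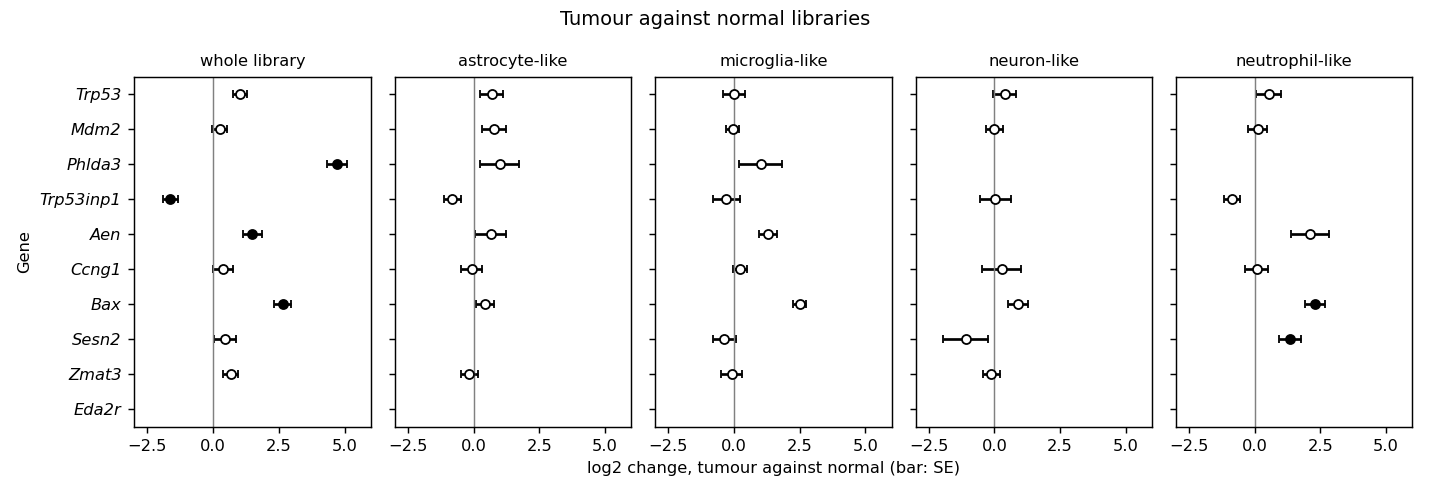
Log2 difference of tumour against normal for each member in whole libraries and in 4 cell classes, with bars of 1 SE from the edgeR fit and filled points at an adjusted p under 0.05. Bax lies at 2.65, 2.50 and 2.30 in whole libraries, microglia-like and neutrophil-like cells and nearer 0 in astrocyte-like and neuron-like cells. Members with too few counts have no point, and Eda2r and the Phlda3 value against 0 counts in neutrophil-like cells are left out.

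Other classes had too few cells for a test and are given as values. Trp53inp1 in endothelial-like cells read 48.4 and 36.6 CPM in the tumour libraries and 252.9 CPM in the normal library (73, 219 and 145 cells). Both tumour values lay far below the normal one. Phlda3 in the same cells read 41.4 and 36.4 CPM against 10.7 CPM, and Bax 272.6 and 212.1 CPM against 81.1 CPM, here with both tumour values above. The progenitor markers Pdgfra and Olig1 moved with these values: they read 66.2 and 54.3 CPM (Pdgfra) and 77.7 and 55.3 CPM (Olig1) in tumour endothelial-like cells and 2.13 CPM each in normal ones. Over 7 progenitor markers the tumour endothelial-like levels were 3.23% to 37.5% and 4.79% to 42.5% of the progenitor-like levels, and Phlda3 was at 61.9% and 45.7%, above each of them; their part in the difference was not tested. In macrophage-like cells Bax read 248.3 and 207.5 CPM in the tumour libraries and 37.6 CPM in the normal library, where it rests on 3 UMIs of 28 cells.

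**Figure D3:**
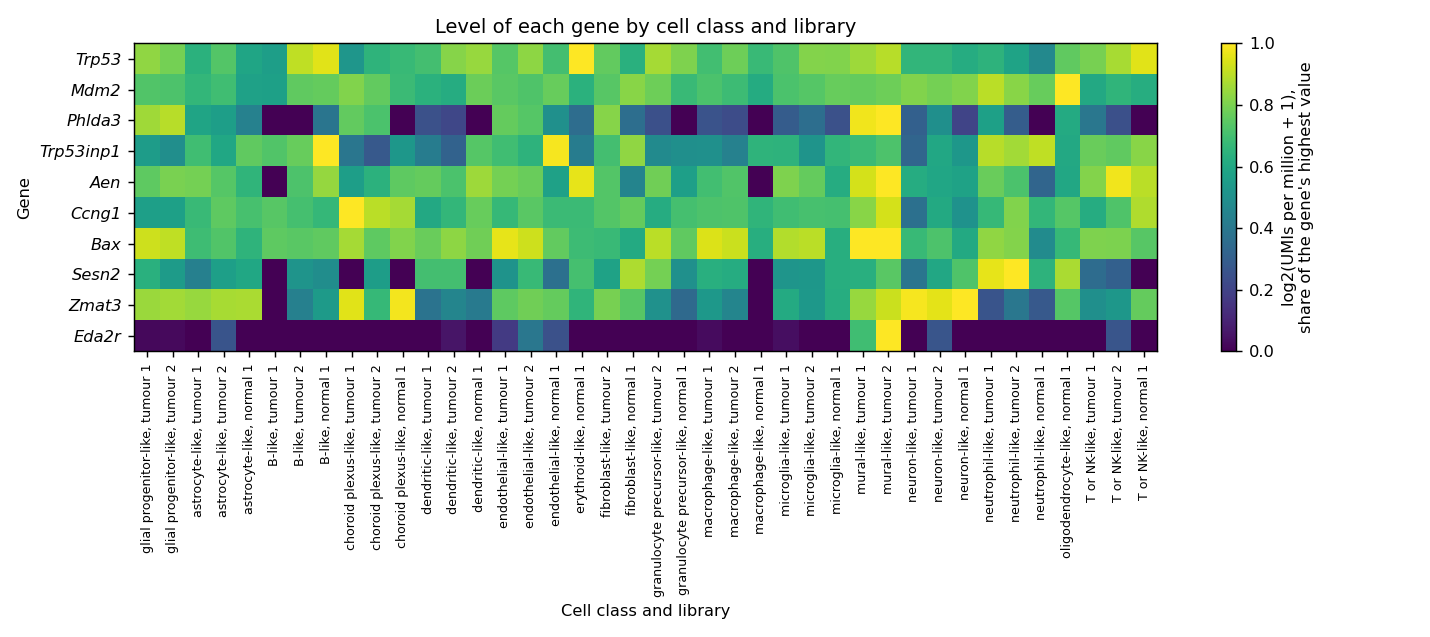
Level of each member by cell class and library (sums of at least 20 cells), as log2(CPM + 1) divided by the gene's highest value, so colours compare classes within a row and not genes with each other. Phlda3, Aen, Bax and Eda2r reach their highest values in mural-like cells, Zmat3 in neuron-like cells, Trp53inp1 in B-like and endothelial-like cells of the normal library, and Ccng1 in choroid plexus-like cells.

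Within the tumour libraries, glial progenitor-like cells were set against the 11 host classes with at least 20 cells in both libraries. Against the mean of the host classes Phlda3, Zmat3 and Bax were higher and Ccng1 and Trp53inp1 were lower, 5 of 10 members, where 55.1% of all 15020 genes tested passed. Against microglia-like cells Phlda3 and Zmat3 were higher and Ccng1 and Trp53inp1 lower, 4 of 10 members, where 63.3% of all genes passed. The share of members that passed was thus no higher than that of all genes. The median log2 difference against the host mean was -0.17 over the members and 0.20 over all genes.

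In glial progenitor-like cells Phlda3 reached 66.9 and 79.6 CPM, beside 3.19 and 4.84 CPM in microglia-like cells and 120.2 and 134.6 CPM in mural-like cells (vessel-wall cells such as pericytes). Only mural-like cells lay above the progenitor-like cells in both libraries. The log2 difference was 4.01 against microglia-like cells (SE 0.29, adjusted p = 2.76e-12 by edgeR) and 3.47 against the host mean (SE 0.23, adjusted p = 7.91e-13 by edgeR). Against single host classes it was higher than 9 of 11, lower than mural-like cells (-0.96, SE 0.24, adjusted p = 0.00183 by edgeR) and not past the threshold against choroid plexus-like cells (0.78, SE 0.40, adjusted p = 0.136 by edgeR). B-like cells had 0 Phlda3 UMIs in both libraries, which puts the progenitor-like level at least 8.66-fold higher (floor of 3 counts over both libraries). In these 11 contrasts the share of all genes that passed was 54.0% for astrocyte-like, 31.9% for B-like, 35.1% for choroid plexus-like, 56.0% for dendritic-like, 53.7% for endothelial-like, 64.0% for macrophage-like, 43.9% for mural-like, 64.1% for neuron-like, 59.6% for neutrophil-like and 45.9% for T or NK-like cells, beside the 63.3% for microglia-like cells. The contrasts with single classes other than microglia-like cells were added after the data were seen.

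Seen per cell, after thinning every cell to 1000 UMIs, 6.84% of glial progenitor-like cells of tumour 1 (298 of 4358, exact 95% binomial interval 6.11% to 7.63%) and 7.63% of those of tumour 2 (160 of 2097, 6.53% to 8.85%) had a Phlda3 UMI. In microglia-like cells the shares were 0.34% (6 of 1763, 0.125% to 0.739%) and 0.0842% (1 of 1188, 0.00213% to 0.468%), and in those of the normal library 0 of 551 cells, which allows up to 0.544%. Unthinned, at median depths of 15843 and 21840 UMIs, 66.4% and 79.3% of progenitor-like cells had one, against 1.33% and 2.64% of microglia-like cells at 3332 and 4876.5 UMIs and 0.429% of those of the normal library (3 of 700) at 1639.5 UMIs. The interval and limit cover counting error only. The microglia-like Phlda3 level was 4.77% and 6.08% of the progenitor-like level. For the 7 progenitor markers that percentage ran from 3.21% to 7.26% in tumour 1 and from 1.38% to 4.97% in tumour 2. The microglia-like Phlda3 level thus lay within that range in tumour 1 and above it in tumour 2, beside 2.39 CPM (3 UMIs) in the normal library, which had 1 progenitor-like cell. The part of free RNA in it was not tested.

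Zmat3 followed a different map: glial progenitor-like cells had 49.0 and 52.3 CPM, neuron-like cells 92.9 and 81.7 CPM, and microglia-like cells 15.8 and 10.7 CPM. Neuron-like cells lay highest in both libraries. It was higher in progenitor-like cells than in 6 of the 11 host classes, all of them immune, lower than in neuron-like cells, and not past the threshold against astrocyte-like, choroid plexus-like, endothelial-like and mural-like cells. Bax was more even, at 216.6 and 191.6 CPM in progenitor-like cells, 248.3 and 207.5 CPM in macrophage-like cells and 334.7 and 329.3 CPM in mural-like cells. It was higher in progenitor-like cells than in 5 host classes and lower than in endothelial-like, macrophage-like and mural-like cells. Its difference from microglia-like cells was 0.04 (SE 0.20), and the sign turned under 4 alternatives, to between -0.49 and -0.08, passing as lower in 1 of them (doublets kept, adjusted p = 0.0212 by edgeR).

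Ccng1 read 15.6 and 16.1 CPM in glial progenitor-like cells, 30.6 and 33.5 CPM in microglia-like cells, 58.8 and 104.6 CPM in mural-like cells and 145 and 86.1 CPM in choroid plexus-like cells. The progenitor-like cells and the neuron-like cells (5.26 and 19.8 CPM) were the 2 lowest classes in both libraries. The log2 difference against the host mean was -1.44 (SE 0.19, adjusted p = 3.01e-07 by edgeR), and Ccng1 was lower in progenitor-like cells than in 9 of 11 host classes and higher than in none. Trp53inp1 stood at 21.5 and 14.9 CPM in progenitor-like cells, 36.4 and 17.3 CPM in microglia-like cells and 148.6 and 125.1 CPM in neutrophil-like cells, the highest class in both libraries. It was lower in progenitor-like cells than in 7 host classes and higher than in dendritic-like cells. Against the host mean its difference was -0.97 (SE 0.25, adjusted p = 0.00144 by edgeR). Against microglia-like cells it was -0.68 (adjusted p = 0.0291 by edgeR), and that call was lost under 5 alternatives (-0.55 to -0.20, adjusted p from 0.0612 to 0.473 by edgeR).

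Trp53 in glial progenitor-like cells was at 88.1 and 69.6 CPM, with mural-like cells at 97.7 and 120.6 CPM and microglia-like cells at 48.6 and 79.9 CPM. Progenitor-like cells held more than microglia-like cells in tumour 1 and less in tumour 2. Trp53 passed as higher in progenitor-like cells against 4 host classes (astrocyte-like, choroid plexus-like, neuron-like and neutrophil-like) and against none as lower. The log2 difference against the host mean was 0.31 (SE 0.19, adjusted p = 0.176 by edgeR), and it passed as higher with library size alone (0.59), no filter (0.41) or stricter cells (0.48), with adjusted p from 0.00548 to 0.0348. Mdm2 stood at 46.8 and 45.5 CPM in progenitor-like cells and passed as lower in 4 contrasts and as higher in none, against macrophage-like, mural-like, neuron-like and neutrophil-like cells. The macrophage-like call (-0.42, adjusted p = 0.0492 by edgeR) did not share the direction of the CPM. That CPM, 44.3 and 37.0, lay below that of progenitor-like cells in both libraries. The part of TMM scaling in the call was not tested. Aen, at 18.2 and 22.3 CPM, passed as higher than neuron-like and lower than mural-like and T or NK-like cells. Sesn2, at 10.9 and 7.39 CPM, was lower than in dendritic-like, macrophage-like and neutrophil-like cells, the last at 41 and 47.8 CPM. Macrophage-like cells had 10.6 and 10.1 CPM of Sesn2, so in tumour 1 the CPM did not share the direction of the fitted difference.

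**Figure D4:**
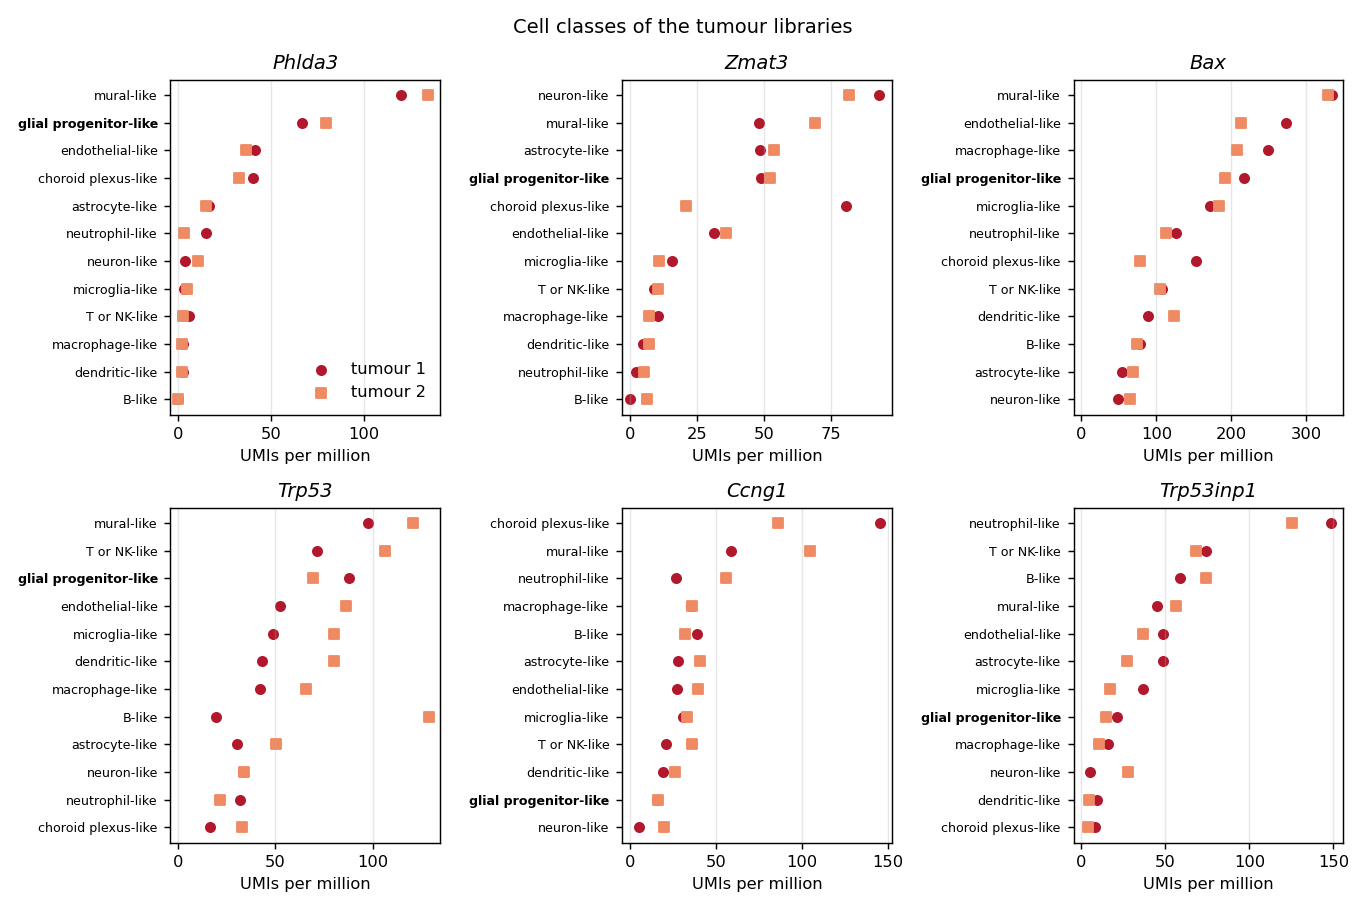
Levels of 6 members in the 12 cell classes of the tumour libraries, in CPM (circles tumour 1, squares tumour 2), each panel in the order of its mean log2 level and with the glial progenitor-like row in bold. Progenitor-like cells rank second for Phlda3 (66.9 and 79.6) and next to last for Ccng1 (15.6 and 16.1).

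Mural-like cells had a median of 23605.5 UMIs per cell in tumour 1 and 4407 in tumour 2, beside 15843 and 21840 in progenitor-like cells. A sum gives more weight to cells with more UMIs. Summed in this way, mural-like cells carried high levels of several members. Next to the Phlda3, Bax and Ccng1 values above, Aen stood there at 38.9 and 50.2 CPM. Eda2r had 10 and 34 UMIs, 6.6 and 17.6 CPM. Endothelial-like cells had 1 and 17 Eda2r UMIs, and glial progenitor-like cells had 7 and 5. The 62 and 149 mural-like cells thus held 10 of 20 and 34 of 63 Eda2r UMIs of the tumour libraries. Of 10 members, 7 were lower in progenitor-like than in mural-like cells and none was higher, where 43.9% of all genes tested passed (3219 higher and 3370 lower). The wider list had 11 of 29 tested genes lower and 2 higher, with Cdkn1a at 302.4 and 438.5 CPM in mural-like cells. Cdkn2a stood at 537.4 and 346.9 CPM in mural-like cells, near the 438.4 and 457.3 CPM of progenitor-like cells. Pdgfra was at 185.5 and 56.4 CPM there against 1173.4 and 1056.7 CPM, and the 7 progenitor markers ran from 14.9% to 46.7% and from 4.97% to 72.8% of the progenitor-like level, the highest being Cspg4, which pericytes also express. The part of progenitor-derived RNA in the mural-like values was not tested. After thinning, 3.51% (2 of 57) and 6.35% (8 of 126) of mural-like cells had a Phlda3 UMI. These shares lay below those of progenitor-like cells, while the CPM lay above. No order is read from the shares, and the higher mural-like Phlda3 holds for summed levels only. The normal library had 5 mural-like cells.

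Over all classes and libraries with at least 20 cells, most neighbours in the order of levels overlapped. For Phlda3, mural-like cells came first and glial progenitor-like cells second, and neither range over libraries overlapped its neighbour's. This is the order of summed levels, which the shares of cells with a Phlda3 UMI after thinning did not follow. From endothelial-like cells downward all neighbours overlapped. Eda2r and Bax also had mural-like cells first without overlap. For Zmat3 neuron-like cells came first and did not overlap the class next in order, though 1 choroid plexus-like library (91.7 CPM) lay within their range. Further down its order, glial progenitor-like, fibroblast-like, oligodendrocyte-like and microglia-like cells each lay apart from the next class. The gap between fibroblast-like (lowest 29.4 CPM) and oligodendrocyte-like cells (28.9 CPM, 1 library) was very small. That oligodendrocyte-like value also lay within the T or NK-like range, 8.93 to 33.1 CPM. For Trp53 the erythroid-like cells of the normal library came first (217.3 CPM, 1 library), and for Mdm2 the oligodendrocyte-like cells of the normal library (202.1 CPM, 1 library); all later neighbours overlapped in both genes. For Ccng1 choroid plexus-like and mural-like cells came first, overlapping each other but not the next class, though 1 T or NK-like library (79.4 CPM) lay within both ranges. For Aen, Sesn2 and Trp53inp1 all neighbours overlapped.

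Of the wider target list, 29 of 30 genes were tested within the tumour libraries. Against the host mean 5 were higher and 8 lower in glial progenitor-like cells, and against microglia-like cells 3 were higher and 15 lower, where 55.1% and 63.3% of all genes tested passed. The 4 largest changes against microglia-like cells were Perp (-4.53), a desmosome-associated apoptosis gene, Btg2 (-4.51), an antiproliferative gene, Plk2 (4.25) and Pmaip1 (-3.69), which encodes the BH3-only protein Noxa. Plk2 stood at 127 and 95.3 CPM in progenitor-like cells and 6.98 and 3.85 CPM in microglia-like cells, and Btg2 at 16 and 14.1 CPM against 387.1 and 227.1 CPM. Against the host mean the 4 largest were Psrc1 (3.75), a spindle gene, Btg2 (-3.0), Plk3 (-2.20) and Plk2 (2.09). Cdkn1a did not differ past the threshold against the host mean (0.14, SE 0.27) or microglia-like cells (0.18, SE 0.34). It varied among the progenitor-like clusters: in tumour 1 it was highest in cluster 4, led by Prss35 and Vegfa (233.5 CPM), and in tumour 2 in cluster 21, led by Serpina3n and Col6a1 (283.8 CPM), and it was lowest in cluster 7, led by Pou3f1, in both (73.6 and 29 CPM). Phlda3 ran from 61.2 to 81 CPM over the same 5 clusters in tumour 1 and from 68.7 to 126.5 CPM in tumour 2, highest in cluster 21 in both.

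Of the 15 regulators tested, 5 were higher and 3 lower in glial progenitor-like cells against the host mean, the largest being Cdkn2a (3.60), Chek1 (1.66), the S-phase checkpoint kinase, Mdm4 (-1.03) and Hipk2 (0.85), a kinase that phosphorylates p53. Mdm4 read 62 and 54.2 CPM in progenitor-like cells, 152.9 and 116.3 CPM in microglia-like cells and 368.1 and 323.1 CPM in neuron-like cells. In both libraries the progenitor-like level was the lower. Cdkn2a read 438.4 and 457.3 CPM in progenitor-like cells and 27.4 and 23.2 CPM in microglia-like cells, 6.26% and 5.08% of the progenitor-like level, inside the range of the progenitor markers in tumour 1 and just above it in tumour 2. Against microglia-like cells 3 regulators were higher and 4 lower.

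Cycling glial progenitor-like cells, 885 and 504 cells called at a fixed depth of 1000 UMIs, were compared with 3473 and 1593 non-cycling ones in the same libraries. The call rested on detecting either of the genes Mki67 and Top2a at that depth. At 2000 UMIs it gave 1103 and 624 cycling cells in tumour 1 and tumour 2. The non-cycling group at 1000 UMIs can therefore hold cycling cells that were missed, and their part in the differences was not tested. Of 9 tested members 5 were lower in cycling cells and Aen was higher, by 0.63 or less on the log2 scale. Trp53inp1 fell from 23.8 to 15 CPM in tumour 1 and from 17.1 to 10.7 CPM in tumour 2, by 0.63 on the log2 scale (adjusted p = 5.41e-11 by edgeR). Sesn2 fell from 11.7 to 8.57 CPM and from 8.05 to 6.1 CPM. Ccng1 went from 16.2 to 14 and from 17.3 to 13.7 CPM, Phlda3 from 68.9 to 61.3 and from 84.5 to 70.2 CPM, and Trp53 from 91.4 to 78.9 and from 72.4 to 64.1 CPM. Each of these 5 genes was lower in cycling cells in both libraries. Aen went from 18.2 to 18.4 CPM in tumour 1 and from 20.5 to 25.8 CPM in tumour 2, so its difference (0.22) came from tumour 2. Mdm2, Bax and Zmat3 did not pass, and Eda2r was not tested. With 6 of 9 members and 41.9% of all 15946 genes past the threshold, the median was -0.15 over the members and -0.02 over all genes.

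Cycling and non-cycling cells of a library share their animal, and with 2 pairs the test leaves 1 residual degree of freedom. The fit took its spread from all genes together, so its p-values do not measure the spread of single genes. Without the library as a block each of the 6 members lost its call, and 486 genes in all passed. Ccng1 also lost it when cycling was called at 2000 UMIs (-0.18, adjusted p = 0.0913 by edgeR), and Aen with library size alone (0.18, adjusted p = 0.0844 by edgeR). Among the other targets 5 of 29 tested were higher and 7 lower, led by Psrc1 (4.09) and Pidd1 (0.99), which takes part in caspase-2 activation, and by Bbc3 (-0.69), which encodes Puma. Ppm1d, the phosphatase that reverses p53 pathway phosphorylation, differed by 0.57. Of 14 regulators tested 6 passed, a share near the 41.9% of all genes tested. These 6 were higher in cycling cells, led by Chek2 (2.76) and Chek1 (1.28), with Mdm4 at 0.35. Cdkn1a differed by 0.07 (adjusted p = 0.214 by edgeR), with 137 against 118 CPM in tumour 1 and 62.8 against 72.8 CPM in tumour 2. Cycling cells held 29796 and 44232 UMIs a cell on average, and non-cycling cells 21045 and 27227.

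**Figure D5:**
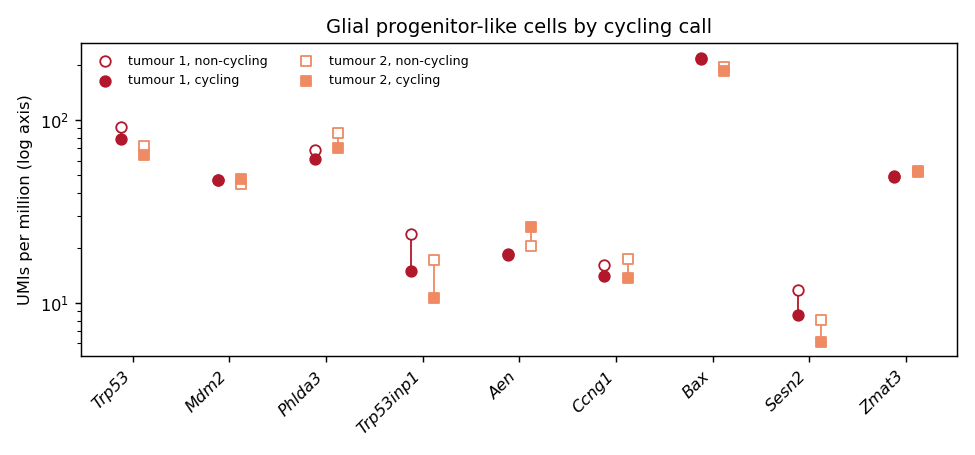
Levels of 9 members in cycling (filled) and non-cycling (open) glial progenitor-like cells, in CPM on a log axis, with a line joining the cells of 1 tumour library (circles tumour 1, squares tumour 2). Trp53inp1, Sesn2, Ccng1, Phlda3 and Trp53 are lower in cycling cells in both libraries, by 0.15 to 0.63 on the log2 scale.

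The genes whose levels ran most like those of a member over 40 sums of a library and class are given as a description; the sums share libraries and differ in depth. For Trp53 they were Serbp1 (Pearson r 0.77), Mcm6 (0.76) and Pa2g4 (0.74), and for Phlda3 Bmp1 (0.82), Aebp1 (0.82) and Selenom (0.82). The nearest gene was Arrdc3 for Mdm2 (0.70), Sp3 for Trp53inp1 (0.70), Sap30bp for Aen (0.85), Acadl for Ccng1 (0.73), Psmd8 for Bax (0.81), Csf1 for Sesn2 (0.66), Mthfd2l for Zmat3 (0.92) and Tfpi2 for Eda2r (0.88).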

How the data were processed

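Droplet single-cell RNA libraries (10x Chromium 3′) of 2 tumour-bearing and 1 normal brainstem were used. The authors deposited raw UMI counts per gene and cell barcode, whose software was Cell Ranger 6.1.2 per the file headers. The submitters' processing notes name the mm10 build, and the gene annotation is not given in the sources used here. Of 32285 identifiers, 32158 matched GENCODE vM21. Per the labels' protocols myelin was depleted with beads, which can alter the cell mix.

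Cells with at least 500 UMIs, 300 genes and at most 15% mitochondrial UMIs were kept, which removed 9.71%, 9.57% and 26.3% of barcodes (tumour 1, tumour 2, normal) by the mitochondrial limit, and 375, 238 and 46 doublets called by Scrublet were removed. Totals before filtering were 151906460, 157114723 and 15035292 UMIs. Cells were clustered in scanpy 1.11.5 (Leiden, igraph 0.11.9, resolution 1, 2000 variable genes, 30 components) without the members and the 2 wider p53 lists, and named by the fixed marker lists; names were rebuilt here and can differ from the study's. Counts were summed per library and class and tested with edgeR 4.0.16 in R 4.3.3 (filterByExpr, TMM, quasi-likelihood, Benjamini-Hochberg), and with DESeq2 1.42.0 as an alternative. Tumour against normal is 2 libraries against 1; an exact permutation test there cannot go below p = 0.333. Nothing says how far the libraries were prepared apart, so p-values cover at most their spread, which may be technical. The prior degrees of freedom weigh the spread shared over genes. At the median they were infinite in the astrocyte-like and cycling fits and 80.7 in the neuron-like fit, against 1 residual. Those p-values rest almost wholly on the shared spread, not on each gene's own. Classes within the tumour libraries were fitted with library as a term (11 residual degrees of freedom, 24 sums). The fit was tested on simulated data. The simulation gave every library the same spread, so it cannot show whether the lone normal library varies like the tumour pair.

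All 10 members are named. Of the target and regulator lists up to 4 called genes with the largest change are named in most comparisons. Differences of Cdkn1a, Cdkn2a and Mdm4 are not given in every comparison. The members and lists were chosen with earlier results of these data known. The contrasts with single host classes, the test of the difference between classes, values within clusters and those without blood-derived classes or with the unnamed microglial cluster were added after the data were seen.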

Additional observations from a re-analysis of the deposited data

Results flagged for a closer look

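The tumour against normal difference of Bax varied between the 4 cell classes tested (edgeR quasi-likelihood test of the difference, adjusted p = 0.0056). On the log2 scale it was 2.50 in microglia-like, 2.30 in neutrophil-like, 0.89 in neuron-like and 0.44 in astrocyte-like cells. With doublets kept it passed as higher in neuron-like (1.24, adjusted p = 0.00894 by edgeR) and astrocyte-like cells (1.08, adjusted p = 0.0102 by edgeR) too, and the difference between classes was not tested under that setting. In each class both tumour libraries lay above the 1 normal library. The normal microglia-like and neutrophil-like cells lie largely in other clusters than the tumour ones, and the part of this in the difference was not tested.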

How the results depend on the processing

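Of the members' log2 differences under other settings (those leaving out a library aside), 375 kept direction and side of the threshold, 28 newly passed, 19 no longer passed and 45 changed sign; the cause was not tested. None of the 45 had passed as reported. Sign changes in whole libraries came with library size alone (Mdm2 -0.31, Ccng1 -0.19, Sesn2 -0.10). In microglia-like cells they were, with no filter, Trp53 0.12, Mdm2 0.08 and Zmat3 0.04; with DESeq2, Trp53 0.07 and Mdm2 0.03; with stricter cells, Mdm2 0.21 and Zmat3 0.33; with doublets kept, Trp53 0.03, Mdm2 0.12 and Zmat3 0.57; at resolution 2, Trp53 0.15, Mdm2 0.03 and Zmat3 0.13; with the unnamed microglial cluster, Trp53 0.14, Mdm2 0.03 and Zmat3 0.21; with library size alone, Ccng1 -0.03. In neuron-like cells Mdm2 went to -0.07 (library size), -0.05 (no filter), -0.01 (DESeq2) and -0.05 (stricter cells), and Trp53inp1 to -0.06 (library size) and -0.02 (no filter). In neutrophil-like cells Mdm2 went to -0.21 (stricter cells) and -0.03 (resolution 2), and Ccng1 to -0.25 (stricter cells), -0.08 (doublets kept) and -1.05 (resolution 2). Progenitor-like against microglia-like cells gave Mdm2 0.06 and Aen 0.02 with no filter, Sesn2 -0.07 with stricter cells, Eda2r -0.20 with the unnamed cluster and -0.37 with doublets kept, and Bax -0.23 (unnamed cluster), -0.40 (stricter cells), -0.49 (doublets kept) and -0.08 (resolution 2). Against the host mean Aen went to 0.13 (library size), 0.02 (stricter cells) and 0 (resolution 2), and Sesn2 to 0.11 (library size). In cycling cells Bax went to -0.02 (library size).

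Members passing went in astrocyte-like cells from 0 to 3 and in neuron-like cells from 0 to 1 with doublets kept. In microglia-like cells they went from 0 to 1 with DESeq2 size factors, library size alone or DESeq2, to 3 with stricter cells, and to 2 with doublets kept, resolution 2 or the unnamed cluster. In neutrophil-like cells they went from 2 to 1 with DESeq2 size factors, DESeq2 or resolution 2, and to 4 with library size alone or no filter. All genes passing in astrocyte-like cells went from 693 to 88 (DESeq2), 414 (stricter cells) and 1805 (doublets kept). In microglia-like cells they went from 1 to 2358 (DESeq2 size factors), 2628 (library size), 0 (no filter), 1199 (DESeq2), 3102 (stricter cells), 3493 (doublets kept), 2627 (resolution 2) and 3024 (unnamed cluster). In neuron-like cells they went from 470 to 0 by edgeR with library size alone (992 at an unadjusted p under 0.05), 128 (DESeq2), 1032 (doublets kept) and 172 (resolution 2), and in neutrophil-like cells from 1648 to 2488 (library size) and 641 (DESeq2).

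Library size alone moved the split against the host mean from 5375 higher and 2898 lower to 6916 and 2036, and that in neutrophil-like cells to 2089 and 399. Without the library block the cycling comparison had 0 members and 486 genes past the threshold. Without tumour replicate 1 or 2 no test remains; Trp53inp1 in whole libraries was then -1.94 and -1.51, and Eda2r 2.57 and 0.94. In neuron-like cells Trp53inp1 was 0.71 and -1.73, Ccng1 0.89 and -1.06, and Sesn2 -0.60 and -2.03. The other values that moved by more than 1 SE of the main fit follow. Without replicate 1 they were Trp53inp1 in astrocyte-like (-1.37) and microglia-like cells (-0.87). Without replicate 2 they were Trp53 in microglia-like (-0.50) and Ccng1 in neutrophil-like cells (-0.50). No paired analysis was possible because the labels name a different mouse for each library, so no tumour library has a normal partner.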
